A study of Mus musculus with 2 samples.

Results

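The elastic fibre genes described here were *Eln*, *Fbn1*, *Fbn2*, *Fbln1*, *Fbln2*, *Fbln5*, *Mfap4*, *Mfap5*, *Emilin1* and *Lox*, which are 10 of the 31053 genes counted. They were chosen by name for their place in the elastic fibre, with earlier results of these data known, and each matched 1 row of the count tables by symbol and gene identifier. The marker genes that define the cell classes below were chosen with the same knowledge. Live cells sorted from neonatal mouse hearts at postnatal day 1 (P1) and postnatal day 7 (P7) were profiled as single cells in droplets, and each age gave 1 library. The library came from 3 hearts of a single litter that were pooled before digestion, for 20 min in collagenase II at P1 and for 45 min at P7. Live cells were those that kept out the dye 7-AAD, and the labels give no strain, genotype, treatment or sex. With 1 library per age there was no replicate and no test of age, and each interval given is a 95% interval for the error of counting alone. It leaves out how far litters, hearts or digestions vary, and for levels and ratios also how far cells vary.

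Elastic fibres give arteries, valves and other moving tissue their recoil. Tropoelastin, made from *Eln*, is laid down on a scaffold of fibrillin microfibrils and is then cross-linked by lysyl oxidase. Fibulins and small glycoproteins of the microfibril guide this assembly. In the heart and great vessels most elastin is made around birth by smooth muscle cells, valve cells and fibroblasts, and the finished fibre is replaced very slowly in later life.

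Transcripts were counted by unique molecular identifiers (UMIs), so that a captured RNA molecule is counted once however often it was read, and levels are counts per 1e+06 UMIs of a group of cells (CPM). The CPM of 1 gene can be set side by side between cells, but not between genes, since capture at the 3′ end differs from gene to gene. Cells were assigned to a class when they held at least 2 UMIs of 1 of 7 marker genes, which were *Cdh5* for endothelium, *Pdgfra*, *Pi16* and *Gdf10* for fibroblasts, *Myh11* for smooth muscle, *Kcnj8* for pericytes and *Upk3b* for epicardium. Cells that passed the gates of several lineages were set aside, 426 at P1 and 726 at P7, or 8.54% and 8.53% of the cells. A gate of this kind sees only cells deep enough to show its gene, and it left 1394 P1 cells and 1338 P7 cells in no class. Leukocytes, gated by *Ptprc*, were used as the background, since they should make little or none of these products.

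The P1 library held 4991 cells with a median of 10875 UMIs and the P7 library 8511 cells with a median of 10104 UMIs, and 13 barcodes occurred among the cells of both. The libraries differed in more than age. *Xist* had 57336 UMIs at P1 and 12 at P7, and 4 Y-linked genes had 2 and 18039, so sex and age cannot be told apart. Cells with at least 2 UMIs of 9 lung marker genes were 8.96% of cells at P1 and 0.963% at P7, and 29 of the 47 P1 *Upk3b* cells were of this kind. In the P1 *Upk3b* class 6 of the 9 lung marker genes had a UMI, and *Sftpb*, *Nkx2-1* and *Inmt* had none. That class is not read as epicardium alone. The *Pi16* gate took 155 cells at P1 and 1555 at P7. *Pi16* itself had 41.6 and 251.7 CPM over all cells and 34.6 and 437.6 CPM in *Pdgfra* cells. More cells of a kind and more *Pi16* per cell cannot be told apart, and the gate may take different cells at each age. Outside the *Pi16* and *Gdf10* gates were 811 of 958 *Pdgfra* cells at P1 and 787 of 1941 at P7, which may differ in kind as well. The marker lists hold the gate genes, so part of each sum follows from the gate. In *Myh11* cells the 7 smooth muscle markers summed to 28892 CPM at P1 and 37955 CPM at P7, against 143.8 and 190.6 CPM in *Cdh5* cells. In *Pdgfra* cells the 6 fibroblast markers summed to 19400.1 and 28195 CPM, against 404 and 389 CPM in *Ptprc* cells. Classes closer in kind shared more of these markers. The fibroblast markers had 13707 and 11998 CPM in *Upk3b* cells and 4915 and 4524 CPM in *Kcnj8* cells. The smooth muscle markers had 1707 and 1739 CPM in *Kcnj8* cells. For *Gdf10* cells the markers were only the gate gene itself and *Wisp1*. These cells also had 974 and 620 CPM of smooth muscle markers and 364 and 169 CPM of pericyte markers at P1 and P7. *Pdgfra* cells outside the *Pi16* and *Gdf10* gates had 506 and 394 CPM and 89.0 and 70.5 CPM. Lung markers at P1 had 93.4 CPM in *Gdf10* cells and 19.0 CPM in those *Pdgfra* cells. The part of these markers in the levels of the members was not tested. The 5 markers of *Pi16* cells summed to 928.9 CPM at P1, of which *Pi16* gave 313.5 CPM, against 790.9 CPM in *Upk3b* cells. The P1 *Pi16* class also had 489 CPM of leukocyte and 254.9 CPM of valve markers, against 68.4 and 74.9 CPM at P7. Lung markers were past the limit in 13.5% of its P1 cells.

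Of the members, 5 had a promoter in the RefSeq table, and 2 of their windows overlapped no annotated exon. They belong to the fibulins *Fbln5* and *Fbln1*, and are shown because the first led in *Myh11* cells at P1 and the second in *Upk3b* cells at both ages. Each is the stretch of 250 bases before the RefSeq start in build GRCm38.p6, read along the gene from 5′ to 3′. In the *Fbln5* window, chr12:101819120-101819369 on the minus strand, capitals mark the GC box GGGCGG, read here on the opposite strand, at 221 to 216 and at 48 to 43 bases before the start. This start lies outside the annotated span of *Fbln5*, which ends at 101819055. The other *Fbln5* window, chr12:101818485-101818734, overlapped annotated exons and held none of the motifs searched. In the *Fbln1* window, chr15:85205699-85205948 on the plus strand, capitals mark ACGTG, a letter match to the core of sites bound by hypoxia-inducible factors. It is read on the strand shown at 80 to 76 bases before the start, and on the opposite strand at 81 to 77 and at 52 to 48. The matches at 81 to 77 and 80 to 76 overlap as the palindrome CACGTG.
Fbln5: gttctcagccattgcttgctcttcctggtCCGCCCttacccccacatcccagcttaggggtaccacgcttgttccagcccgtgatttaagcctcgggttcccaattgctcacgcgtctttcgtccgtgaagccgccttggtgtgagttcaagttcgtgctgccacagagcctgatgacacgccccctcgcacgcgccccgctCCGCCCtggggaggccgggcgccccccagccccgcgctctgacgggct
Fbln1: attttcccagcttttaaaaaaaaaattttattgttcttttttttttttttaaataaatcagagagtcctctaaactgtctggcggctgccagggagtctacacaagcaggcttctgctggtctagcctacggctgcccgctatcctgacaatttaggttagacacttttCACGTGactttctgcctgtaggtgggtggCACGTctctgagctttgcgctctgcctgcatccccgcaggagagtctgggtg

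On both strands, GGGCGG occurred in 32.7% and ACGTG in 16.6% of the 32851 promoter windows of the table. Neither of the windows shown held TATAAA, the AP-1 site (TGACTCA or TGAGTCA) or the CArG box of smooth muscle genes, which occurred in 12.4%, 4.46% and 1.47% of all windows. These are matches of letters, and no binding was measured.

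Over all cells, the members showed mixed differences between the ages. Mfap5, a microfibril glycoprotein, was the only member called, at 415 CPM at P1 and 1556 CPM at P7, a log2 ratio of P7 over P1 of 1.91 (1.89 to 1.93). A gene was called when the ratio was at least 2-fold and its interval did not include 0. By that rule 3.83% of the 16552 genes measured were called higher at P7 and 8.54% higher at P1, against 1 and 0 of the 10 members. Below the 2-fold limit, *Fbn1* had 313 and 587 CPM (0.91), *Fbln1* 169.7 and 288 CPM (0.76), *Mfap4* 488 and 813 CPM (0.74) and *Fbln2* 311 and 457 CPM (0.56). *Fbn2* had 169.9 and 90.6 CPM (-0.91) and *Eln* 1323 and 881 CPM (-0.59). The ratios of *Emilin1* (-0.24), *Fbln5* (-0.17) and *Lox* (0.05) were close to 0, and the interval of *Lox* included it. The median ratio of the members was 0.30, that of all genes -0.00. In such a sum, more cells of a kind and more RNA per cell cannot be told apart, so the classes are given next.

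**Figure D1:**
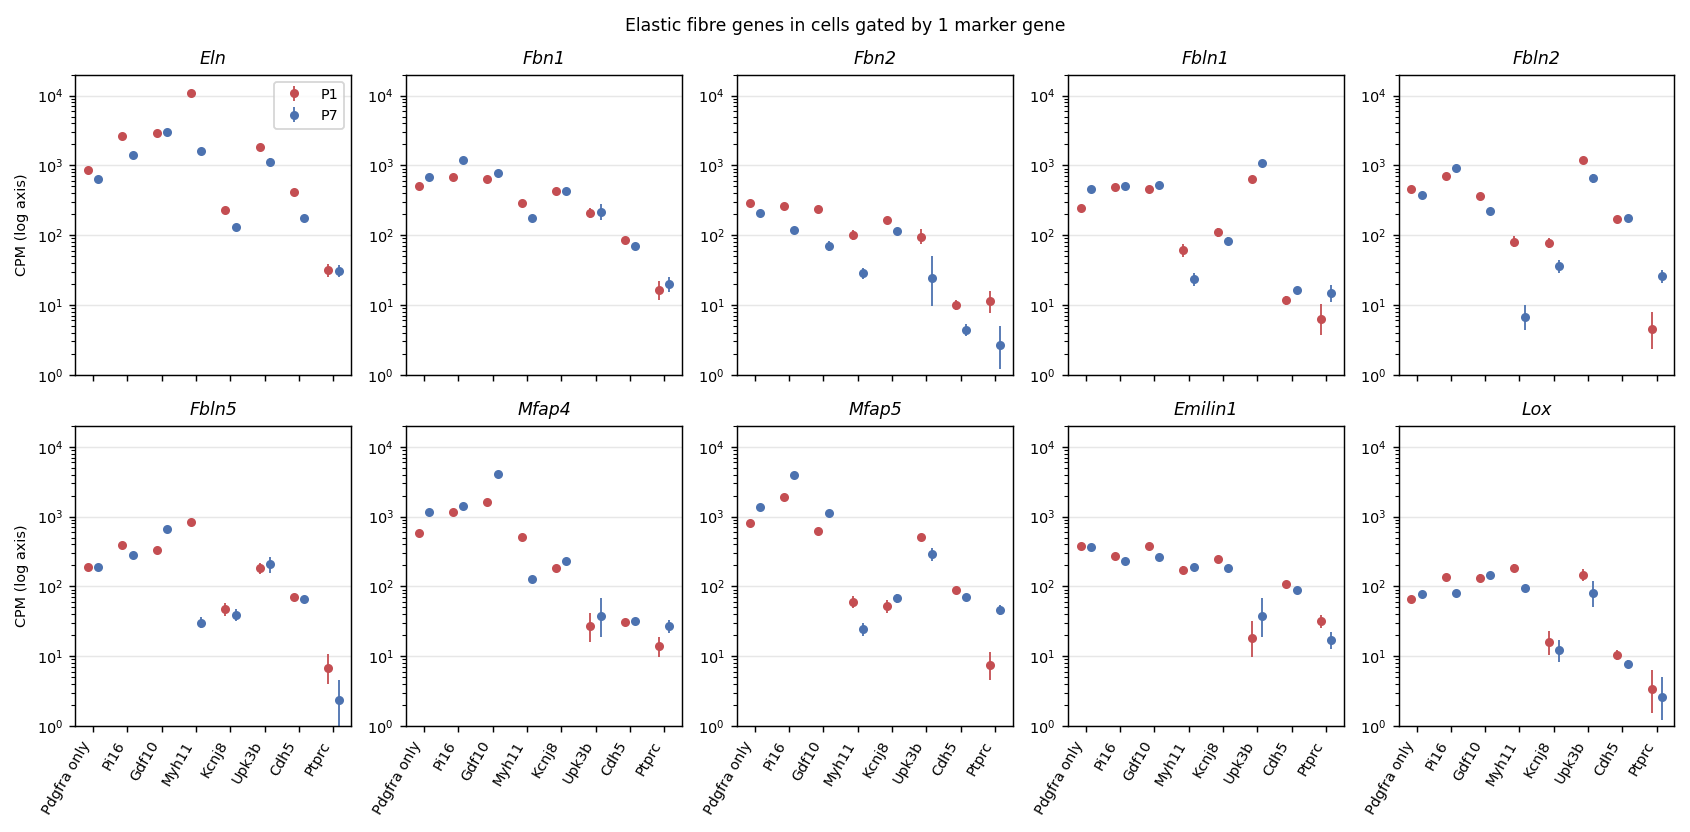
Level of each elastic fibre gene, in CPM on a log axis, in the cells of 8 classes at P1 (red) and P7 (blue), where Pdgfra only means Pdgfra cells without the Pi16 or Gdf10 gate. Points are sums over the cells of 1 library and bars are exact Poisson 95% intervals, so that Eln stands at 10974 CPM in Myh11 cells of P1 and at 1599 CPM in those of P7.

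The difference between the ages was widest in the smooth muscle class, which held 125 cells at P1 and 365 at P7. Of the 10 members, 7 fell there from P1 to P7 and none rose, where 4.52% of 10438 genes were called higher at P1 and 2.68% higher at P7. The median ratio of the members was -1.60 and that of all genes -0.01. *Eln* went from 10974 CPM (10807 to 11142) to 1599 CPM (1559.5 to 1639.7), a log2 ratio of -2.78. *Fbln5*, which tethers tropoelastin to cells and microfibrils, went from 836 CPM to 30.4 CPM (-4.78, -5.07 to -4.51), and *Fbln2* from 81.1 CPM to 6.76 CPM (-3.56, -4.26 to -2.97). *Mfap4*, *Fbn2*, *Fbln1* and *Mfap5* were also called lower at P7, with ratios of -2.00, -1.82, -1.38 and -1.31. The other three were not called, and the P7 levels of *Fbln2* and *Mfap5* were below those of *Ptprc* cells, so these are read as background. *Lox* had 187 and 96.2 CPM (-0.96), *Fbn1* 287 and 177 CPM (-0.70) and *Emilin1* 172 and 188 CPM (0.12, -0.08 to 0.34).

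The transcripts were spread unevenly over the cells. At P1, *Eln* made up at least 1% of all UMIs in 33 of the 125 smooth muscle cells (26.4%, exact binomial interval 18.9 to 35.0), and at P7 in 9 of 365 (2.47%, 1.13 to 4.63). The 33 cells held 92.0% of the *Eln* UMIs of their class and, although they were picked for *Eln* alone, 93.2% of its *Fbln5* UMIs, 86.3% of *Mfap4*, 85.7% of *Mfap5*, 81.3% of *Fbln2* and 62.9% of *Lox*. They held 52.2% of *Fbln1*, 51.5% of *Fbn1*, 43.4% of *Fbn2* and 37.5% of *Emilin1*, beside 29.0% of all UMIs of the class. *Fbln5* stood at 2682 CPM in the 33 cells and at 80.0 CPM in the other 92, with a UMI in 32 and in 13 of them. The 9 P7 cells past the same limit, with 17816 CPM of *Eln* against 34763 CPM in the 33 P1 cells, had 348 CPM of *Fbln5* and 2034 CPM of *Mfap4*, and the other 356 had 18.9 and 57.4 CPM. The median cell of the whole class had 629 CPM of *Eln* at P1 and 68.0 CPM at P7.

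These cells also differed in other markers. The 33 P1 cells had 27441 CPM of the smooth muscle markers against 29486 CPM in the other 92. Fibroblast markers, which include *Col1a1* and *Col1a2*, stood at 6418 against 1527 CPM, cardiomyocyte markers at 1289.9 against 508 CPM and pericyte markers at 979 against 3109.9 CPM. Over the whole class, the fibroblast markers went from 2947 CPM at P1 to 1235 CPM at P7 and the pericyte markers from 2491 to 4726 CPM. Of the 5 markers of *Pi16* fibroblasts, *Pi16* and *Dpp4* had no UMI in the P1 class, but the other 3 did. The 5 summed to 129.955 CPM in that class, between 37.2 CPM in *Ptprc* cells and 928.9 CPM in *Pi16* cells of P1. The lung marker limit was passed by 8 cells of the P1 class and 3 of the P7 class. The part of the mix of cells in the fall of the elastic fibre genes was not tested. With cells of several lineages kept in the class, 4 members were called lower at P7 in place of 7, the ratio of *Fbln2* was -0.30 and that of *Mfap5* turned to 0.94, whereas *Eln* and *Fbln5* stayed at -2.36 and -3.57.

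**Figure D2:**
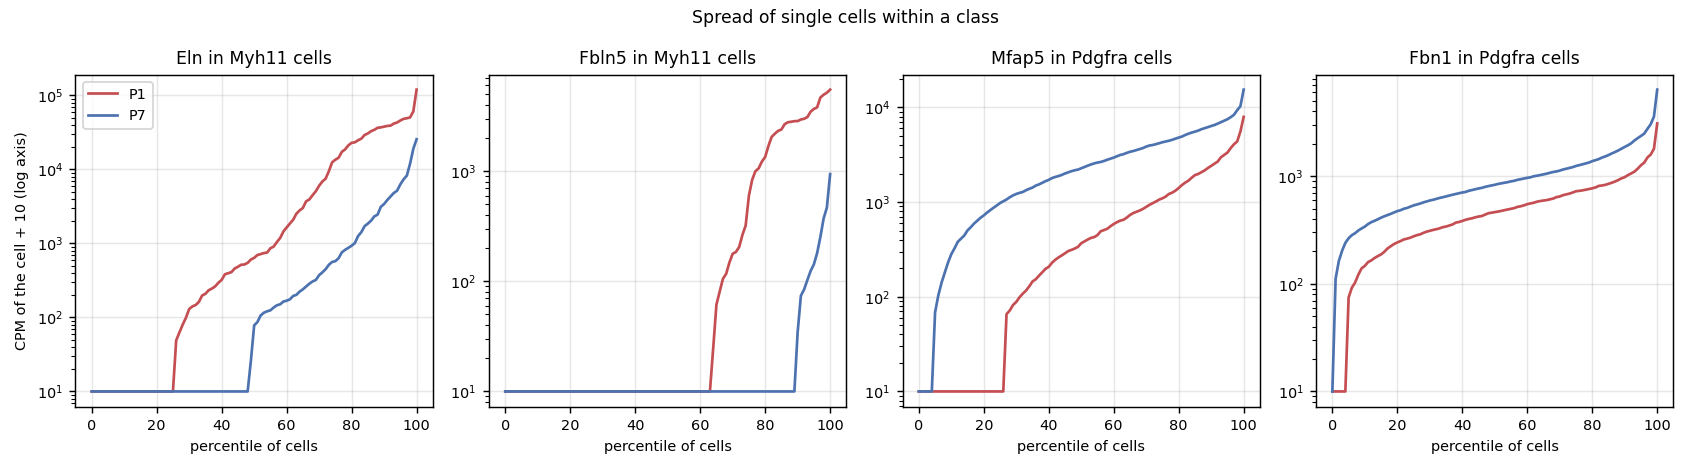
CPM per cell plus 10, on a log axis, by percentile of the cells of a class, for Eln and Fbln5 in Myh11 cells and for Mfap5 and Fbn1 in Pdgfra cells at P1 (red) and P7 (blue). In Myh11 cells the median cell had 629 CPM of Eln at P1 and 68.0 CPM at P7, and Fbln5 was absent from most cells at either age, whereas in Pdgfra cells the curves of Mfap5 and Fbn1 lay higher at P7 wherever the P7 value was above 0.

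Transcripts of *Eln*, the tropoelastin gene, were found in several classes. *Eln* (ENSMUSG00000029675, chromosome 5, 134702593 to 134747323, minus strand, 37 exons in its longest model) was highest in *Myh11* cells at P1, followed by *Gdf10* cells (2864 CPM), *Pi16* cells (2604 CPM), *Upk3b* cells (1826 CPM), *Pdgfra* cells outside those gates (848 CPM), *Cdh5* cells (417 CPM), *Kcnj8* cells (229.8 CPM) and *Ptprc* cells (31.6 CPM). At P7 the order was *Gdf10* (2992 CPM), *Myh11* (1599 CPM), *Pi16* (1408 CPM), *Upk3b* (1132 CPM), other *Pdgfra* cells (633 CPM), *Cdh5* (176 CPM), *Kcnj8* (131 CPM) and *Ptprc* (30.5 CPM). At neither age did the intervals of neighbours in the order overlap, but these intervals leave out how far the cells of a class vary. At P1, 12 of 126 *Gdf10* cells held 66.3% and 14 of 155 *Pi16* cells 60.5% of the *Eln* UMIs of their class. Of *Pdgfra* cells outside those gates 15 of 811 held 48.9%, and of *Kcnj8* cells 1 of 164 held 33.8%. In *Pdgfra* cells as a whole *Eln* stood at 987 and 1029.9 CPM, a ratio of 0.06 whose range over the alternative settings was -0.12 to 0.32, so no direction is given for it. The called difference outside smooth muscle was in *Cdh5* cells, where *Eln* fell by 1.24 on the log2 scale. There 2 members, *Eln* and *Fbn2*, were called lower at P7 against 5.83% of genes and none higher against 3.69%. The *Fbn2* difference is read as background below. Lung markers were past the limit in 11.2% of *Cdh5* cells at P1 and 0.856% at P7, and their part in the ratio was not tested. *Eln* had a UMI in 43.7% of *Cdh5* cells at P1 and 22.9% at P7, and in 21.4% and 9.95% after thinning, and 9 cells held 26.7% of its UMIs at P1 and 10 cells 19.8% at P7. With cells of several lineages kept in that class the ratio of *Eln* was -0.50.

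The fibrillins, the rods of the microfibril, moved apart in the fibroblast classes. *Fbn1* (ENSMUSG00000027204, chromosome 2, 125300594 to 125507993, minus strand) is the main fibrillin of postnatal tissue, and *Fbn2* (ENSMUSG00000024598, chromosome 18, 58008623 to 58210487, minus strand) that of the fetus. In *Pdgfra* cells *Fbn1* had 536 CPM at P1 and 1011 CPM at P7 (0.91, 0.88 to 0.95), which is below the 2-fold limit, and the median cell had 454 and 822 CPM. After each cell had been thinned to 2000 UMIs, 56.7% of P1 and 77.9% of P7 *Pdgfra* cells had a UMI of *Fbn1*, against 3.56% and 4.85% of *Ptprc* cells. *Fbn2* had 275 and 150.3 CPM in the same cells (-0.87, -0.93 to -0.81). In *Pdgfra* cells outside the *Pi16* and *Gdf10* gates the ratios of *Fbn1* and *Fbn2* were 0.45 and -0.47. The part of the larger number of cells past the *Pi16* gate at P7 was not tested. Outside the fibroblasts *Fbn1* was lower at P7 in *Myh11* cells (-0.70), below the 2-fold limit. In *Cdh5* cells its ratio was -0.28 with a range over the alternative settings of -0.40 to 0.47, so no direction is given. In *Kcnj8* (-0.02) and *Upk3b* cells (0.09) the intervals included 0. *Fbn2* was called lower at P7 in 5 of the 7 gated classes, namely in *Gdf10* (-1.74), *Pi16* (-1.13), *Cdh5* (-1.18), *Myh11* (-1.82) and *Upk3b* cells (-1.89, 67 against 7 UMIs). The *Pi16* value was -0.48 with cells of several lineages kept. Its level in *Cdh5* cells, 10.0 CPM at P1 and 4.40 CPM at P7, was that of the *Ptprc* background at 11.3 and 2.64 CPM, so the *Cdh5* difference is read as background. *Fbn2* was lower in *Ptprc* cells at P7 as well (-2.04, 30 against 9 UMIs).

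*Fbn1* was highest in *Pi16* cells (672 and 1197 CPM) and *Gdf10* cells (632 and 779 CPM), whose intervals overlapped at P1 only, then in other *Pdgfra* cells (507 and 691 CPM) and *Kcnj8* cells (431 and 425 CPM). *Myh11* cells (287 and 177 CPM), *Upk3b* cells (206 and 217 CPM) and *Cdh5* cells (85.2 and 70.2 CPM) followed, and the intervals of *Upk3b* and *Myh11* cells overlapped at P7. *Fbn2* was highest in *Pdgfra* cells outside the *Pi16* and *Gdf10* gates (285 and 205 CPM). At P1 their interval overlapped that of *Pi16* cells (263 CPM, a log2 ratio to them of -0.11), and the latter that of *Gdf10* cells (234 CPM). At P7 the intervals of *Pi16* cells (120.1 CPM) and *Kcnj8* cells (113 CPM) overlapped, and *Gdf10* cells were at 70.1 CPM.

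Among the fibulins, *Fbln1* (ENSMUSG00000006369, chromosome 15, 85205949 to 85286535, plus strand), a fibulin of elastin cores and basement membranes, was highest in the *Upk3b* class. It had 629 CPM in *Upk3b* cells at P1 and 1077 CPM at P7 (0.78, 0.56 to 0.99), then 487 and 512 CPM in *Pi16* cells and 465 and 529.8 CPM in *Gdf10* cells, where the last pair overlapped at both ages. In *Pdgfra* cells it had 273 and 494 CPM (0.86). The *Upk3b* class held 47 cells at P1 and 22 at P7, its own 8 markers summed to 7024 and 6104 CPM, and all 22 P7 cells had a UMI of *Fbln1*. Lung markers were past the limit in 61.7% of these cells at P1 and 13.6% at P7, with sums of 229.6 and 86.3 CPM. Of the 9 lung marker genes, 6 had a UMI in the class at P1 and 3 at P7. The part of the lung markers in the age ratio was not tested.

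*Fbln2* (ENSMUSG00000064080, chromosome 6, 91212455 to 91272540, plus strand), found in developing valves and vessel walls, led in *Upk3b* cells at P1 (1185 CPM) and in *Pi16* cells at P7 (907 CPM), with *Upk3b* cells at 649 CPM. Of the P1 *Upk3b* cells, 61.7% passed the lung marker limit. *Cdh5* cells held 15.8% of its UMIs at P1 and 9.74% at P7, below their 28.4% and 25.4% of all UMIs. Its level in *Cdh5* cells was 173 and 175 CPM (0.02, -0.05 to 0.09). The *Ptprc* background was 4.51 and 25.8 CPM. In *Kcnj8* cells *Fbln2* was the only member called, from 77.6 to 36.0 CPM (-1.11), where 2.91% of genes were called higher at P1 and 2.29% higher at P7. The P7 level there was close to its background.

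*Fbln5* (ENSMUSG00000021186, chromosome 12, 101746565 to 101819055, minus strand) changed its leading class between the ages. At P1 it stood at 836 CPM in *Myh11* cells, 392 CPM in *Pi16* cells and 328 CPM in *Gdf10* cells. At P7 *Gdf10* cells led with 663 CPM, followed by *Pi16* cells (287 CPM), *Upk3b* cells (207 CPM) and other *Pdgfra* cells (192 CPM), and *Myh11* cells were last but for the background. In *Gdf10* cells it was called higher at P7 (1.01, 0.88 to 1.15), just past the limit, and the ratio ranged from 0.75 to 1.24 over the alternatives. After thinning, 34.1% (25.9 to 43.1) of P1 and 65.5% (56.9 to 73.3) of P7 *Gdf10* cells had a UMI of *Fbln5*, against 3.56% and 0.765% of *Ptprc* cells.

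**Figure D3:**
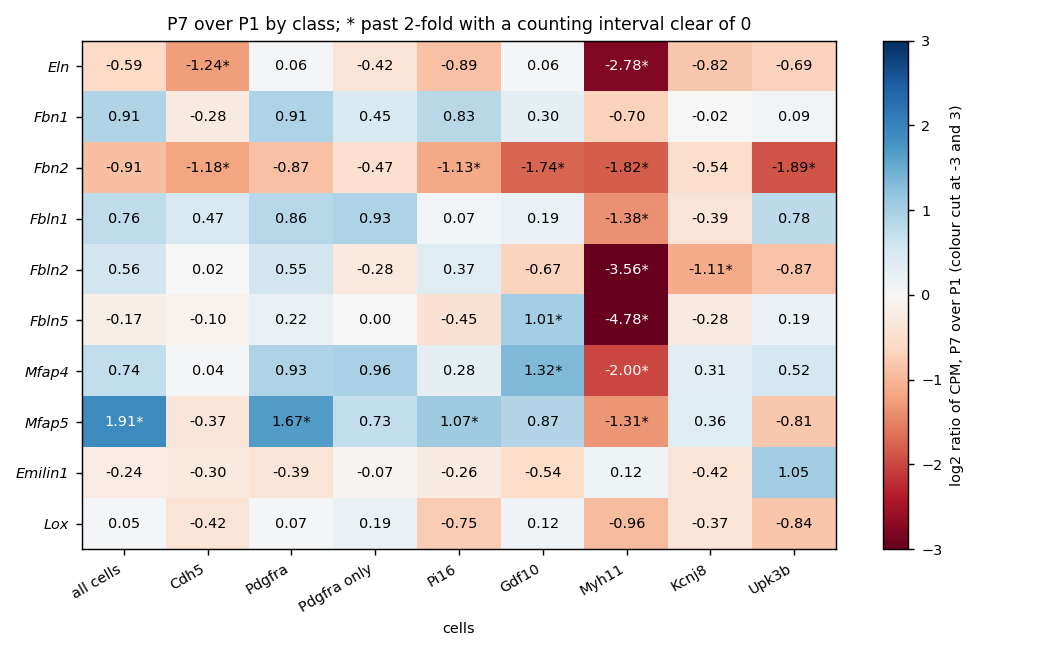
Log2 ratio of P7 over P1 CPM for each elastic fibre gene (rows) over all cells and in 8 classes (columns), blue for higher at P7 and red for higher at P1, with the value printed and a star where the ratio was past 2-fold and its counting interval did not include 0. The Myh11 column holds 7 stars, all towards P1, from -1.31 for Mfap5 to -4.78 for Fbln5, and the row of Fbn2 is below 0 throughout.

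The microfibril-associated glycoproteins *Mfap4* (ENSMUSG00000042436, chromosome 11, 61485431 to 61488900, plus strand) and *Mfap5* (ENSMUSG00000030116, chromosome 6, 122505845 to 122529290, plus strand) led in different fibroblast gates, those of *Gdf10* and *Pi16*. These gates shared cells, 10 of the 126 *Gdf10* cells at P1 and 83 of the 139 at P7. *Mfap5*, also called MAGP-2, binds fibrillin and Notch ligands, and it led in *Pi16* cells at both ages, at 1898 CPM at P1 and 3988 CPM at P7 (1.07, 1.03 to 1.11). It was called higher at P7 in *Pi16* cells and in *Pdgfra* cells as a whole (952 and 3034 CPM, 1.67). In *Pdgfra* cells outside the *Pi16* and *Gdf10* gates it had 814 and 1352 CPM (0.73, 0.70 to 0.77), below the limit. The larger number of cells past the *Pi16* gate at P7 stands beside the *Pdgfra* ratio, and its part in it was not tested. The cells outside both gates may not be of the same kind at each age. After thinning, 50.3% of P1 and 86.3% of P7 *Pdgfra* cells had a UMI of *Mfap5*, and 1.58% and 7.91% of *Ptprc* cells. The background of *Mfap5*, its level in *Ptprc* cells, went from 7.52 to 46.6 CPM. In *Ptprc* cells 3 members were called higher at P7 (*Mfap5*, *Fbln2* and *Fbln1*) and 2 lower (*Fbn2* and *Fbln5*) of 9 measured, against 8.84% and 4.95% of genes.

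*Mfap4*, which binds tropoelastin and fibrillin, led in *Gdf10* cells, at 1626 CPM at P1 and 4070.0 CPM at P7 (1.32, 1.27 to 1.38). It came next in *Pi16* cells (1179 and 1434 CPM) and other *Pdgfra* cells (589 and 1149 CPM, 0.96). At P7, 138 of the 139 *Gdf10* cells had a UMI, with a median of 3752 CPM per cell, against 1274 CPM at P1. Its gene overlaps *Mapk7* on the opposite strand. In *Upk3b* cells *Mfap4* had 26.9 and 38.0 CPM and in *Cdh5* cells 31.0 and 31.8 CPM, beside a background of 13.9 and 26.9 CPM, and the intervals of the *Upk3b* class overlapped both others at each age.

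*Emilin1* (ENSMUSG00000029163, chromosome 5, 30913402 to 30921277, plus strand), a glycoprotein at the border of elastin and microfibrils, had 383 and 364 CPM in *Pdgfra* cells outside the *Pi16* and *Gdf10* gates, 243 and 182 CPM in *Kcnj8* cells, 172 and 188 CPM in *Myh11* cells and 108 and 88.0 CPM in *Cdh5* cells. It was called in no class, with ratios of -0.07 in *Pdgfra* cells outside those gates, -0.26 in *Pi16*, -0.30 in *Cdh5*, -0.39 in *Pdgfra*, -0.42 in *Kcnj8* and -0.54 in *Gdf10* cells, and in the *Ptprc* background of -0.91. In *Upk3b* cells it had 13 and 11 UMIs, 18.4 and 38.0 CPM (1.05, -0.26 to 2.32), beside 31.9 and 17.0 CPM in *Ptprc* cells.

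*Lox* (ENSMUSG00000024529, chromosome 18, 52516067 to 52529867, minus strand), the lysyl oxidase that cross-links tropoelastin and collagen, followed *Eln*. At P1 it was highest in *Myh11* cells (187 CPM), *Upk3b* cells (145 CPM), *Pi16* cells (136 CPM) and *Gdf10* cells (133 CPM), where the interval of each overlapped that of the next. At P7 *Gdf10* cells led (144 CPM) before *Myh11* cells (96.2 CPM). *Pi16* (80.4 CPM), *Upk3b* (79.4 CPM) and other *Pdgfra* cells (76.7 CPM) followed with overlapping intervals. *Kcnj8* cells had 15.8 and 12.3 CPM and *Cdh5* cells 10.4 and 7.80 CPM. It was called in no class between the ages, with ratios of -0.96 in *Myh11*, -0.84 in *Upk3b* and -0.75 in *Pi16* cells.

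Few of the 10 members were called between the ages in the fibroblast classes, and counts this small do not set the classes apart. *Pdgfra* cells also include cells of the *Pi16* and *Gdf10* gates. From P1 to P7 in *Pi16* cells 1 member was called higher and 1 lower, against 3.17% and 6.89% of genes. In *Gdf10* cells 2 were higher and 1 lower, against 3.29% and 3.69%, and in *Pdgfra* cells 1 was higher and none lower, against 4.06% and 5.94%. The count higher in *Gdf10* cells at P7 was 1 after thinning or without lung-marker cells. It was also 1 with cells of several lineages kept or without UMIs of another gate gene. Of the *Gdf10* cells, 10 of 126 at P1 and 83 of 139 at P7 also passed the *Pi16* gate. The part of this shift in their age ratios was not tested. In *Pdgfra* cells outside both gates no member was called, where 2.66% of genes were higher at P7 and 4.34% higher at P1. In *Upk3b* cells only *Fbn2* was called, against 3.69% of genes higher at P7 and 3.95% higher at P1. The fibroblast markers summed to 19510 and 33045 CPM in *Gdf10* cells and to 20992 and 29133 CPM in *Pi16* cells. Their part in these ratios was not tested.

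Within a library, the subsets could be compared without the difference in digestion or sex. Over *Pdgfra* cells outside both gates, *Pi16* cells of P1 were called higher in 5 members, which were *Eln* (1.62), *Mfap5* (1.22), *Fbln5* (1.03), *Lox* (1.01) and *Mfap4* (1.00), against 5.07% of genes, and in none lower against 2.57%. At P7 they were higher in *Mfap5* (1.56), *Fbln2* (1.25) and *Eln* (1.15), against 3.61% of genes, and in none lower against 2.28%. The P1 count was 1 with cells of several lineages kept or a gate of 1 UMI and 3 after thinning. *Gdf10* cells were higher in *Eln* (1.76) and *Mfap4* (1.46) at P1, against 3.37%, with none lower against 2.50%. At P7 they were higher in *Eln* (2.24), *Mfap4* (1.83) and *Fbln5* (1.79), against 3.93%, and lower in *Fbn2* (-1.54), against 3.78%. The P1 count of *Gdf10* cells was 0 with a gate of 1 UMI and 4 with a gate of 3 UMIs or after thinning. The gates were chosen with earlier results of these data known, so the high *Eln* of *Gdf10* cells may not be independent of that choice.

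The *Gdf10* and *Pi16* cells could also be set against each other. They shared 10 of the 126 *Gdf10* cells at P1 and 83 of the 139 at P7, and shared cells count on both sides. At P1 the only called member was *Mfap5*, lower in *Gdf10* cells (-1.61), against 4.78% of genes lower and 3.41% higher. At P7 *Gdf10* cells were higher in *Mfap4* (1.50), *Fbln5* (1.21) and *Eln* (1.09), against 4.34%, and lower in *Fbln2* (-2.01) and *Mfap5* (-1.80), against 3.86%. A few cells again carried much of *Eln*. In *Gdf10* cells 12 of 126 at P1 and 10 of 139 at P7 drew at least 1% of their UMIs from it, and these held 66.3% and 32.5% of the *Eln* of their class. In *Pi16* cells they were 14 of 155 and 30 of 1555, with 60.5% and 27.6%.

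Smooth muscle cells and fibroblasts divided the members between them. At P1, *Myh11* cells were above *Pdgfra* cells outside both gates in *Eln* (3.69), *Fbln5* (2.12) and *Lox* (1.48), against 9.91% of genes, and below them in *Mfap5*, *Fbln2*, *Fbln1*, *Fbn2* and *Emilin1* (-3.75 to -1.15), against 11.4%. At P7 only *Eln* (1.34) was still higher, against 11.4%, and 7 members were lower, against 16.5%, with *Fbln5* now at -2.65. The P7 call of *Eln* was lost with a gate of 1 UMI, after thinning and by the mean of cells. Over *Kcnj8* pericytes, the other mural cells, *Myh11* cells of P1 were higher in *Eln* (5.58), *Fbln5* (4.14), *Lox* (3.54) and *Mfap4* (1.46), against 7.90%, and in none lower against 10.2%. At P7 they were higher in *Eln* (3.61) and *Lox* (2.95), against 8.36%, and lower in *Fbn1*, *Fbn2*, *Fbln1*, *Fbln2* and *Mfap5* (-2.39 to -1.26), against 12.5%. With cells of several lineages kept, *Mfap4* turned to -0.27 in the P1 comparison.

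The source of each transcript in the tissue as sampled was given by the share of its UMIs that each class held. *Pdgfra*, *Pi16* and *Gdf10* cells together held 31.0% of all UMIs at P1 and 42.5% at P7. They held 29.2% of the *Eln* UMIs at P1 and 57.4% at P7, and of *Mfap5* 71.5% and 85.6%, the highest share of any member at both ages. *Myh11* cells held 2.57% and 3.95% of all UMIs, but 21.3% and 7.17% of *Eln*, 10.2% and 0.641% of *Fbln5* and 9.18% and 7.04% of *Lox*. Cells in no class held 25.4% and 13.9% of *Eln* and 37.4% and 14.7% of *Mfap4*, beside 16.9% and 9.12% of all UMIs. The classes above thus leave part of the signal undescribed. The cells in no class were a mix that differed between the ages. They had 1264 CPM of lung, 2599 CPM of cardiomyocyte and 7391 CPM of red cell markers at P1. At P7 these stood at 5.62, 360 and 19522 CPM. In these cells *Mfap5* was called higher at P7 (1.63) and *Fbn2* lower (-1.10), against 3.75% and 6.44% of genes. The part of the mix in these ratios was not tested. In the cells set aside *Mfap5* (1.69) and *Mfap4* (1.17) were called higher and none lower, against 3.71% and 3.94%. Among the cells in no class, 60 P1 cells and 26 P7 cells drew at least 1% of their UMIs from *Eln*. Their fibroblast markers, at 12791 and 19268 CPM, were near those of all cells in no class (12200 and 17997 CPM). Their smooth muscle markers stood higher, at 8633 and 2710 CPM against 1765 and 954 CPM.

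**Figure D4:**
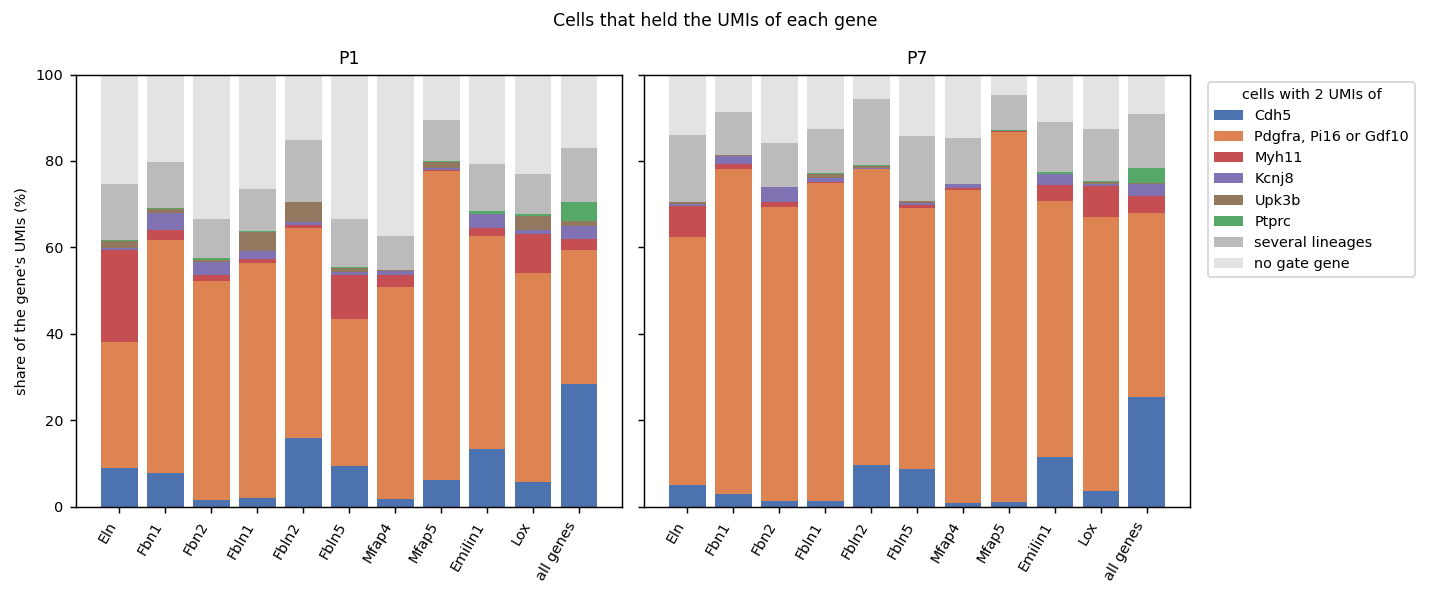
Share of the UMIs of each elastic fibre gene, in percent and summing to 100, held by the cells of each class at P1 (left) and P7 (right), with all genes as the last bar. Myh11 cells held 21.3% of Eln at P1 and 7.17% at P7, and fibroblast gates 29.2% and 57.4%.

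The likeness of the members was described over 16 profiles, those of 8 classes at each age, which share 2 libraries and, for *Pi16* and *Gdf10*, some cells, and so are not independent. Over 11566 genes, *Lox* was the gene most like *Eln* (Pearson's r 0.95) and *Eln* the gene most like *Lox*. *Fbln5* was most like *Tmem17* (0.91) and had *Eln* as the third (0.90). *Mfap5* was most like *Adamts5* (0.97), *Fbn1* like *Ikbip* (0.99), *Fbn2* like *Extl2* (0.96), *Fbln1* like *Glis2* (0.98), *Fbln2* like *Ctsl* (0.94), *Mfap4* like *Pcdh9* (0.96) and *Emilin1* like *Sh3pxd2a* (0.95). The least alike members were *Fbln2* and *Emilin1* (0.20).

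Other genes of fibre assembly and turnover were read from a list of 45. In *Myh11* cells 34 of them were measured, 12 were called lower at P7 and none higher, against 4.52% and 2.68% of all genes. Of the 17 genes of microfibrils and assembly 12 were measured and 7 were called, among them *Ltbp2* (-3.67, 62 against 12 UMIs), *Thsd4* (-2.85), *Adamtsl4* (-2.71) and *Mfap2* (-1.76), partners of fibrillin. The elastin cross-linkers *Loxl1* and *Loxl2* fell by 1.31 and 1.27, the protease *Mmp2* by 1.80 and the protease inhibitors *Timp4* and *Timp1* by 7.04 and 1.92, where *Timp4* had 284 UMIs at P1 and 5 at P7. Of 5 fibrillar collagen genes 4 fell, from -2.16 for *Col1a1* to -1.17 for *Col1a2*. None of the 10 TGF-beta ligands and integrins was called among the 9 measured.

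In *Pdgfra* cells 41 of the 45 genes were measured, 3 were called higher at P7 and 1 lower, against 4.06% and 5.94% of all genes, so the list did not stand far from the rest. *Emilin2*, a relative of *Emilin1*, went from 16.3 to 81.4 CPM (2.32), and *Efemp1*, the gene of fibulin-3, from 9.29 to 23.7 CPM (1.35). *Ctss*, a leukocyte protease, had 10 and 74 UMIs in these cells (1.78), and the integrin gene *Itga8* had 79.6 and 39.1 CPM (-1.02). No collagen was called. Over all cells 5 of the 45 genes were lower and 1 higher at P7, against 8.54% and 3.83% of all genes, which is again near the general rate. The lower ones included 4 proteases, known as genes of leukocytes in the main, which were *Mmp12* with 101 UMIs at P1 and 0 at P7, *Elane* (28 and 5 UMIs), *Mmp9* (-2.17) and *Ctss* (-1.08). *Timp4* was also lower (-1.81) and *Emilin2* higher (1.32).

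**Figure D5:**
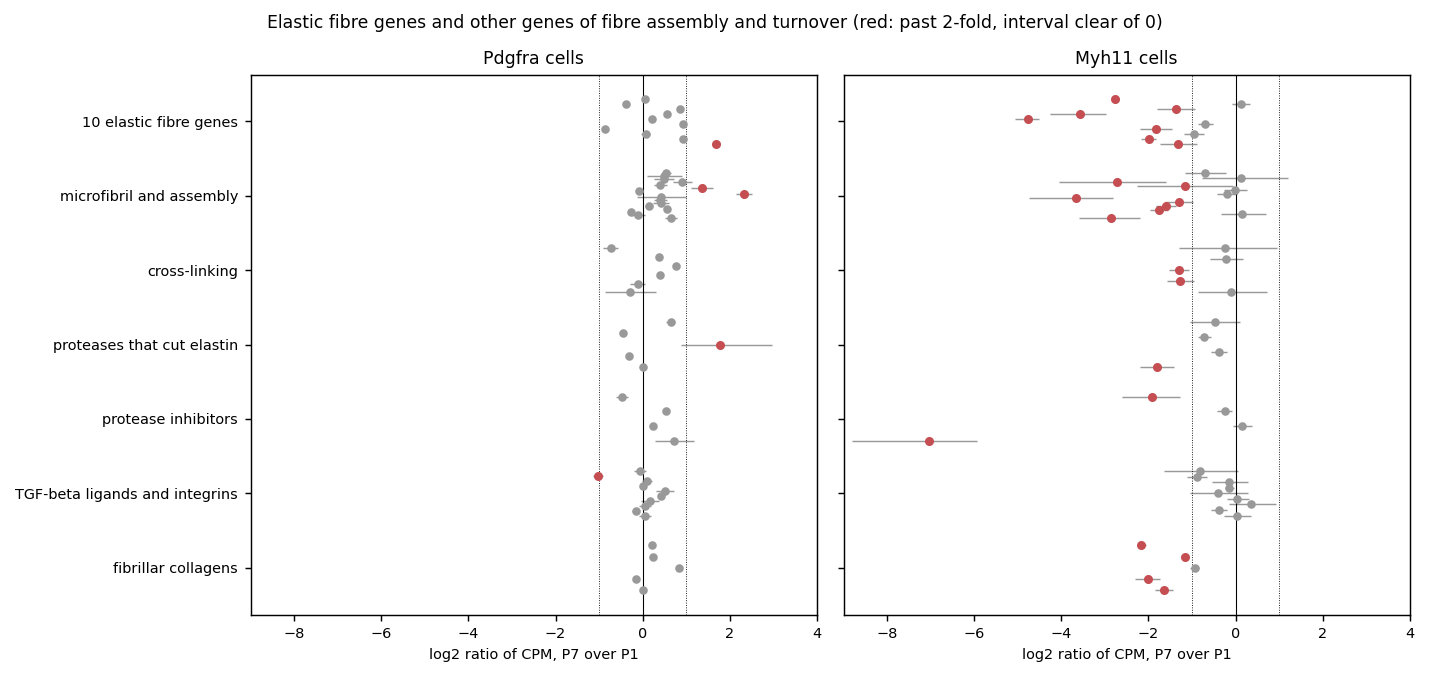
Log2 ratio of P7 over P1 CPM of the 10 elastic fibre genes and of other genes of fibre assembly and turnover in Pdgfra cells (left) and Myh11 cells (right), where each point is a gene with at least 20 UMIs, lines are counting intervals and red marks genes past 2-fold with an interval clear of 0. In Pdgfra cells red points stand on both sides of 0, and in Myh11 cells all lie towards P1, among them 7 of the 10 elastic fibre genes.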

How the data were processed

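Single cell 3′ libraries of P1 and P7 hearts were read from the count tables that the authors deposited, raw UMI counts per gene and cell. Per the submitters' processing notes they were made with Cell Ranger 3.1.0 on mm10 (GRCm38). The values are whole numbers and were not scaled, and the tables hold 7836 barcodes and 63585504 UMIs at P1 and 9077 barcodes and 98346195 UMIs at P7. Cells with 200 to 8000 genes and at most 20% mitochondrial UMIs were kept. Classes were gates of at least 2 UMIs rather than clusters, and no doublet caller was run. Cells passing gates of several lineages were set aside instead, except that *Upk3b* cells with *Pdgfra* stayed in the *Upk3b* class.

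Counts were summed per class and library. CPM carry exact Poisson intervals, shares of cells exact Clopper-Pearson intervals, and log2 ratios, with 0.5 counts added, exact binomial intervals, all of counting error only. A gene was measured with at least 20 UMIs over both groups, and called past 2-fold with an interval clear of 0. No p-value was computed, since each age had 1 library. Shares were also taken after thinning to 2000 UMIs, which left out 574 P1 and 727 P7 cells. The scripts recovered known changes in simulated counts. These were independent draws, as the intervals assume, so they leave out how UMIs gather in single cells. Likeness was Pearson's r of log2(CPM + 10) for genes with at least 500 UMIs. Genes named besides the members were the gate and marker genes, up to 4 called genes with the largest ratios from each group of the assembly list in all, *Pdgfra* and *Myh11* cells, and the 3 most alike genes of each member, of which the text gives some. The members, gates and lists were chosen with earlier results of these data known. Alternatives changed gates, filters, cells kept, counts added, scaling and thinning, and 1, cells with no UMI of another lineage's gate gene, was added after seeing the data. Promoters came from RefSeq and positions from GENCODE M21. Python 3.11.15, NumPy 2.4.6, SciPy 1.17.1 and pandas 2.3.3 were used.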

Additional observations from a re-analysis of the deposited data

Results flagged for a closer look

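*Fbln5*, *Mfap4* and *Mfap5* moved one way in a fibroblast class and the other way in smooth muscle cells, each past the 2-fold limit. The log2 ratio of P7 over P1 for *Fbln5* was 1.01 in *Gdf10* cells and -4.78 in *Myh11* cells, 5.79 apart, and the difference was not tested. The *Gdf10* ratio of *Fbln5* ranged from 0.75 to 1.24 over the alternative settings, so it was not past 2-fold in all of them. For *Mfap4* the same classes gave 1.32 and -2.00, 3.32 apart, and this difference was not tested either. *Mfap5* had 1.67 in *Pdgfra* cells and 1.07 in *Pi16* cells against -1.31 in *Myh11* cells, 2.985 and 2.38 apart, again not tested. Its P7 level in *Myh11* cells, 24.2 CPM, was below the 46.6 CPM of *Ptprc* cells and is read as background. The *Myh11* ratio of *Mfap5* turned to 0.94 with cells of several lineages kept.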

How the results depend on the processing

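No paired analysis was possible because each age had 1 library and no result came from a test, and for the same reason no replicate could be left out. Over 14 alternatives, 534 of 602 counts and medians kept their value within the margin set for it, 67 moved and 1 reversed, and of 1247 log2 ratios of single genes 972 stayed inside the main interval. The cause was not tested in any case. All log2 values are P7 over P1 unless 2 classes are named.
With cells of several lineages kept, *Mfap5* in *Myh11* cells (0.94), *Mfap4* in *Myh11* over *Kcnj8* cells at P1 (-0.27) and the *Cdh5* median (0.34) reversed, the medians of *Kcnj8*, *Myh11* and *Pi16* cells were 0.029, -0.52 and 0.35, and the members higher at P7 and P1 were 3 and 0 in *Cdh5*, 1 and 0 in *Kcnj8*, 3 and 0 in *Pi16*, 1 and 2 in *Upk3b* cells, with 1 higher in *Gdf10* and 4 lower in *Myh11* cells. With a gate of 1 UMI, the medians were -0.44 in *Cdh5*, 0.38 in *Gdf10*, -1.17 in *Myh11*, 0.32 in *Pdgfra* and 0.088 in *Pi16* cells, and 1 member was higher at P7 in *Kcnj8* and 2 in *Upk3b* cells. With a gate of 3 UMIs, the medians were 0.36 in *Gdf10* and 0.25 in other *Pdgfra* cells, 2 were higher at P7 in *Pdgfra* cells and in those outside both gates, and 2 higher at P1 in *Kcnj8* and *Pi16* cells. After thinning, the medians were 0.052 over all cells, 0.039 in *Gdf10* and 0.32 in *Pdgfra* cells, with 1 lower over all cells (*Fbn2*), 2 in *Pi16* and 3 in *Kcnj8* cells, and 1 higher in *Gdf10* and *Kcnj8* cells. By the mean of cells, the median over all cells was 0.067, with 1 lower there and in *Cdh5*, 2 in *Kcnj8* and *Upk3b* and 1 higher in *Upk3b* cells. Without lung-marker cells 1 was higher in *Gdf10* and in other *Pdgfra* cells, without cells over 6000 genes 2 were lower in *Upk3b* cells, and without UMIs of another gate gene 1 was higher in *Gdf10*, *Kcnj8* and other *Pdgfra* cells and 2 lower in *Upk3b* cells (median -0.83).
Between classes, *Kcnj8* cells of P1 were above *Myh11* cells in 1 member with lineages kept, a gate of 1 or 3, thinning, lung-marker cells removed or no UMI of another gate gene, and in 2 without cells over 6000 genes and by the mean of cells. *Myh11* cells of P7 were above *Pdgfra* cells outside both gates in 0 (gate of 1, thinned, mean of cells) and below *Kcnj8* cells in 3 (thinned), *Pi16* cells of P1 above *Pdgfra* cells in 1 (lineages kept, gate of 1) or 3 (thinned), and *Gdf10* cells in 0 (gate of 1) or 4 (gate of 3, thinned). At P7 with a gate of 1, 0 were lower in *Gdf10* cells. The number of cells limits the *Upk3b* class, 47 at P1 and 22 at P7, with 7 UMIs of *Fbn2* at P7. In other classes some levels were near or below the *Ptprc* background, such as *Fbn2* in *Cdh5* cells and P7 *Mfap5* and *Fbln2* in *Myh11* cells.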
